A study of Homo sapiens with 40 samples.

Results

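The comparison set the 2 libraries of SETD2 KO cells treated for 5 days with DAC and BMN together against the 2 libraries of SETD2 KO cells treated for 5 days with BMN and no DAC, 4 of the 40 libraries of the series. It addresses what DAC adds to PARP inhibition in cells labelled SETD2 KO. The cells are 786-0, an established human line from a clear cell renal cell carcinoma, with 1 derivative labelled SETD2 KO and 1 labelled SETD2 WT. DAC is decitabine, given at 100 nM, and BMN is taken here as BMN673 (talazoparib), given at 10 nM, since the series text spells its number in 2 ways. The combination group therefore carried the SETD2 knockout, 100 nM DAC and 10 nM BMN, and the BMN group carried the same knockout and 10 nM BMN. The labels do not say whether the KO line is 1 clone, how the knockout was made, or whether the libraries of a group came from separate cultures. The p-values therefore measure only the spread between libraries of a group, shared over all groups of the series, which may be technical. A further 8 libraries served the questions whether the difference was the same in WT cells at day 5 and in KO cells at day 26 (2 libraries each of the combination and of BMN), and the 2 KO libraries with DAC at day 5 and the 2 untreated KO libraries of day 0 are given beside the results as values without a test.

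Decitabine is a cytosine analogue that is built into DNA during replication. There it traps DNA methyltransferases, chiefly DNMT1, which are then degraded, so methylation is lost over the following divisions and genes held silent by promoter methylation can be transcribed. Talazoparib blocks PARP1 and PARP2, enzymes that detect DNA breaks, and holds them on DNA, where they stand in the way of replication forks. SETD2 places the third methyl group on lysine 36 of histone H3 along transcribed genes, a mark that recruits DNMT3B and that takes part in repair by homologous recombination, and it is often mutated in clear cell renal cell carcinoma.

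Library totals ran from 17949229 to 19613332 counts over the 4 libraries. A total of 30729 and 30467 genes had at least 1 count in the combination libraries, against 27109 and 26670 in the BMN libraries, although the combination libraries were the shallower ones. The 10 highest genes took 5.57% to 5.67% of the counts of a library. Levels are given as CPM (counts scaled to a common library total), which are not corrected for gene length and compare libraries, not genes. SETD2, the gene labelled as knocked out, had 115 and 108 CPM in the combination libraries, against 121 and 124 CPM in the BMN libraries, and did not pass the test (log2 difference -0.15, adjusted p = 0.12). WT cells held like amounts of its RNA, 115 ± 2.4 CPM with the combination and 134 ± 0.61 CPM with BMN (SD, n = 2 each), so the level of the transcript does not tell the lines apart, and the labels do not give the deleted part. PAX8, a transcription factor of the kidney lineage, had 373 ± 15 CPM in the combination and 419 ± 11 CPM in BMN (SD, n = 2 each). CA9, a target of hypoxia-inducible factor that marks most clear cell renal carcinomas, had 0 counts in all 4 libraries.

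With DAC on top of BMN, a large part of the transcriptome differed. The test was edgeR's quasi-likelihood test with Benjamini-Hochberg adjustment at 0.05, which 9187 of 22527 tested genes passed (40.8%). Of these, 5168 rose (22.9%) and 4019 fell (17.8%). Large differences were more often rises: 3042 genes (13.5%) rose at least 2-fold and 551 (2.45%) fell at least 2-fold, while the median log2 difference over all tested genes was 0.05. Rises of at least 2-fold were most frequent among genes of low level. Among the 6729 tested genes with a mean under 1 CPM, 22.1% rose at least 2-fold, against 2.23% of the 2461 genes over 100 CPM. Falls of at least 2-fold made up 2.02% of the genes under 1 CPM and 1.63% of those over 100 CPM. Calls of any size were 22.1% and 22.6% for rises, and 2.07% and 37.8% for falls. Under 1 CPM nearly all calls were of at least 2-fold (1487 of 1488 rises and 136 of 139 falls), so smaller differences were hardly called there. Long noncoding RNAs other than antisense ones rose at least 2-fold in 568 of 2439 cases (23.3%). Antisense genes did so in 226 of 1590 (14.2%), protein-coding genes in 1940 of 14242 (13.6%) and pseudogenes in 189 of 3500 (5.4%). Rises of any size made up 29.5%, 18.1%, 26.4% and 7.89% of these classes. The classes were not compared at like levels. A total of 165 genes had 0 counts in both BMN libraries and at least 1 CPM in both combination libraries, and no gene showed the reverse. Silent genes enter the test only through groups that express them, so these counts are a description.

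**Figure D1:**
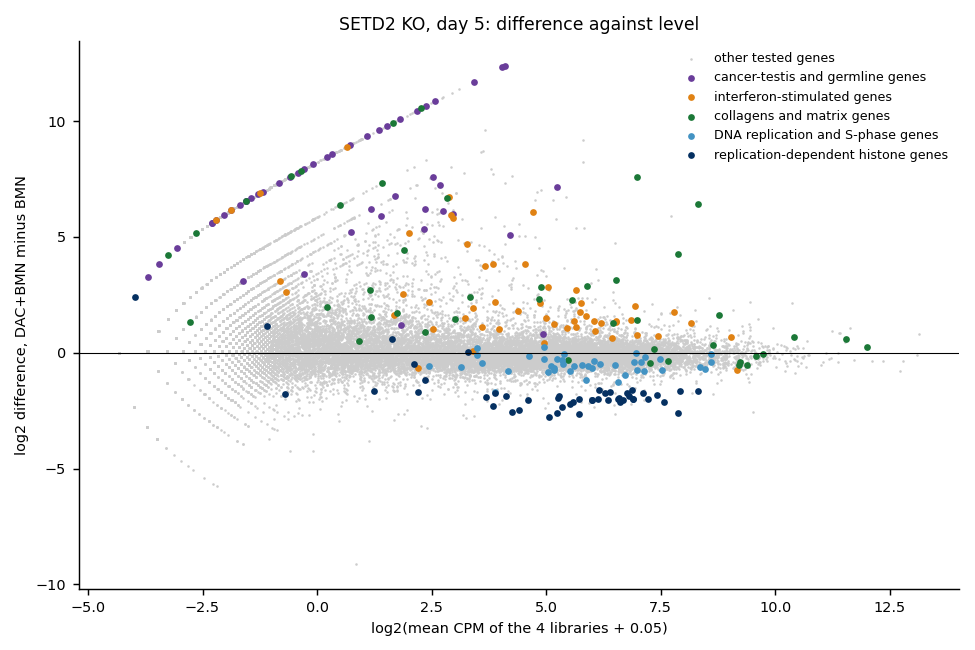
Each point is a tested gene, with its log2 mean CPM over the 4 libraries (0.05 CPM added) on the x axis and its log2 difference, DAC+BMN minus BMN, on the y axis. Gene lists are coloured. Germline genes lie at the upper left, and histone genes lie below 0 at middle levels, with a median log2 difference of -1.96.

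Cancer-testis and germline genes are normally transcribed in germ cells and kept silent elsewhere by promoter methylation. Most of those tested were higher with the combination, many from 0 counts with BMN. Of the 64 listed, 48 could be tested, and 45 of these rose and none fell, beside 22.9% of all tested genes that rose. A total of 32 of the 48 had 0 counts in both BMN libraries. These 32 entered the test only through groups that express them and could not fall, so the count of rises is a description. Against a floor of 3 counts per library, which is 0.156 to 0.167 CPM, the median member rose at least 14.9-fold. The promoters of DAZL and MAGEB2 are shown because these are among the largest rises of all and their promoter regions differ in CpG content. The 250 bases before the RefSeq start are given from GRCh38.p14, 5′ to 3′ on the strand of the gene, with each CG dinucleotide in capitals. That of DAZL lies at chr3:16605424-16605673 on the minus strand and holds 28 CG. That of MAGEB2 lies at chrX:30215313-30215562 on the plus strand and holds 15 CG.
DAZL: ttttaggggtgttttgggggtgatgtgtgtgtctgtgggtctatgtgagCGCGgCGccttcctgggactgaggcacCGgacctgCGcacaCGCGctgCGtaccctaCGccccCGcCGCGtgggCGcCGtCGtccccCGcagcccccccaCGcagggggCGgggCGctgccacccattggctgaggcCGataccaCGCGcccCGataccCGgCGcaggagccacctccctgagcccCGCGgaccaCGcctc
MAGEB2: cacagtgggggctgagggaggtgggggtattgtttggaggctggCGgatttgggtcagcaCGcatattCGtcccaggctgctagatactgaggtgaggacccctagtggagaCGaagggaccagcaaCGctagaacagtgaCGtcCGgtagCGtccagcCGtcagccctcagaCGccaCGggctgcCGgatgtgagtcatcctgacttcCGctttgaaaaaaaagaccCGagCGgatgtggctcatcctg
Over the 41 germline genes with an entry in the RefSeq promoter table, the window from 250 bases before to 50 bases after the start held a median of 14 CG. The median over 11423 protein-coding genes with an entry was 25 CG, and 20 or more CG stood in 29.3% of the germline windows against 67.7% of the protein-coding ones.

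DAZL, an RNA-binding protein of germ cells, had 33.5 and 35.1 CPM in the combination libraries, against 0 counts in both BMN libraries. That is at least 220-fold higher. PNMA5, a gene derived from a retrotransposon, had 34.8 and 30.1 CPM with the combination and 0 counts in both BMN libraries, at least 208-fold higher. MAGEB2, a cancer-testis antigen encoded on the X chromosome, had 21.2 and 21.5 CPM in the combination, against 0 counts with BMN, at least 137-fold higher. The groups did not overlap in these 3 genes, which the rule for naming them required, and did not overlap in 72.3% of all tested genes. SPANXB1, a sperm protein of the X chromosome with near-identical copies, had 73.6 and 76.6 CPM in the combination libraries, against 0.468 and 0.574 CPM in the BMN libraries (log2 difference 7.15 ± 0.20 (SE), adjusted p = 2e-24). GCNA, a germ cell protein that removes DNA-protein crosslinks, had 36.9 and 35 CPM with the combination, against 0.885 and 1.2 CPM with BMN (log2 difference 5.10 ± 0.18 (SE), adjusted p = 7.6e-22). MAGEA4, MAGEC2, TKTL1 and TDRD1 were likewise at 0 counts with BMN, and MAGEA4 was at least 75.6-fold and MAGEC2 at least 57.2-fold higher with the combination. Reads of the MAGE-A genes can be shared with close copies, which makes the single values uncertain. PRAME was the member with the smallest rise, at 36.8 and 40.5 CPM in the combination and 21.1 and 22.8 CPM in BMN. GAGE12J, LIN28B and DPPA4 were tested and did not pass, with at most 0.167 CPM in any of the 4 libraries.

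Beyond the germline class, genes at 0 counts in both BMN libraries included FBLIM1, which encodes an adaptor at cell adhesions (13 and 13.6 CPM with the combination, at least 85.5-fold higher), CD93, a receptor of endothelial and myeloid cells (11.4 and 10.9 CPM, at least 71.4-fold) and THBS2, a matrix glycoprotein (8.63 and 10.5 CPM, at least 61.3-fold). TEX13C had 16.9 and 17 CPM and PNMA6E 14.9 and 15.5 CPM in the combination libraries, both with 0 counts in the BMN libraries. PRR20G and TUBA3E, both members of families with close copies, were at least 84.5-fold and 61.4-fold higher.

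**Figure D2:**
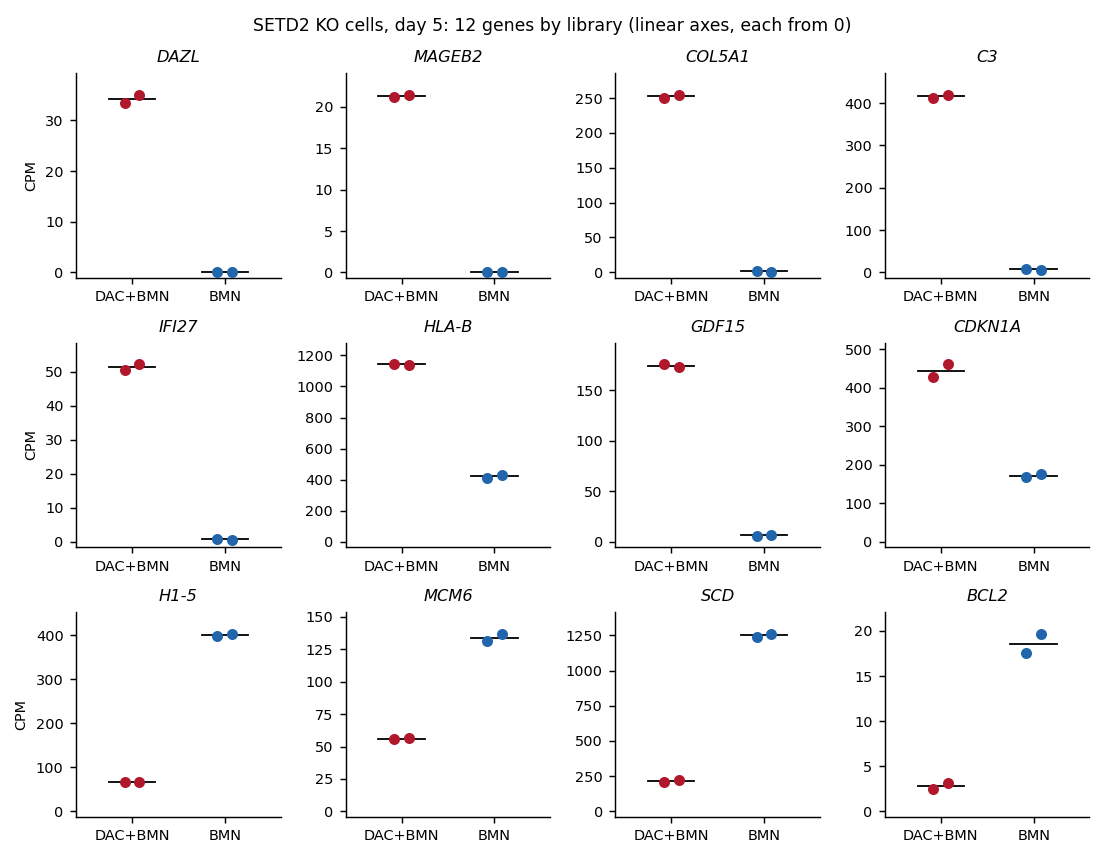
Points are the CPM of the 2 DAC+BMN libraries and the 2 BMN libraries of SETD2 KO cells at day 5, on linear axes, and lines are the means. The 2 groups do not overlap in these 12 genes, nor in 72.3% of all tested genes; DAZL and MAGEB2 have 0 counts with BMN, and H1-5, MCM6, SCD and BCL2 are lower with the combination, with SCD at 207 and 222 CPM against 1241 and 1262 CPM.

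Genes of the extracellular matrix, which encode collagens, their processing enzymes and matrix proteases, rose in 32 of 44 tested cases and fell in 6, with a median log2 difference of 1.86. Over all tested genes 22.9% rose and 17.8% fell, shares that apply to this list count and to those that follow. Counted with silent members at the floor, the median member rose 3.03-fold. COL1A1, a chain of the main fibrillar collagen, had 622 and 633 CPM in the combination libraries, against 7.02 and 7.77 CPM in the BMN libraries (log2 difference 6.41 ± 0.13 (SE), adjusted p = 2.1e-28). COL5A1, a chain of the collagen that regulates fibril assembly, had 250 and 255 CPM with the combination and 1.51 and 1.1 CPM with BMN (log2 difference 7.59 ± 0.13 (SE), adjusted p = 5.2e-30). COL6A3 had 446 and 440 CPM in the combination, against 21.4 and 25.2 CPM in BMN. FBN1, the microfibril protein fibrillin, and MMP2, a gelatinase, rose by log2 differences of 3.15 and 2.87. The combination libraries were the higher ones in all 5, which naming members by smallest p favours, and the groups did not overlap in 72.3% of all tested genes. COL4A1, a collagen chain of basement membranes, fell, and had 551 and 534 CPM with the combination and 779 and 791 CPM with BMN, and the collagen crosslinking enzyme LOXL2 fell as well (log2 difference -0.54). Of 27 tested epithelial-mesenchymal genes, 21 rose and 3 fell. THY1, a surface glycoprotein of mesenchymal cells, had 33.2 and 35 CPM in the combination, against 0.208 and 0.209 CPM in BMN, and the epithelial keratin KRT19 had 88.5 and 83.2 CPM, against 17.1 and 16.3 CPM. VIM, the mesenchymal intermediate filament, fell by 0.29 on the log2 scale and the epithelial integrin chain ITGB6 fell by 1.61.

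Interferon-stimulated genes are switched on by transcription factors that become active after interferon binds its receptor. Of 53 tested, 50 rose, 2 fell and 1 did not pass, and 44 rose at least 2-fold. The median log2 difference was 1.74. IFI27, a small membrane protein of the interferon response, had 50.5 and 52.3 CPM in the combination libraries, against 0.833 and 0.678 CPM in the BMN libraries (log2 difference 6.08 ± 0.13 (SE), adjusted p = 5.9e-28). MX2, a dynamin-like protein that restricts viruses, had 18.3 and 18.5 CPM with the combination and 0.676 and 0.73 CPM with BMN (log2 difference 4.70 ± 0.15 (SE)). IFI44 had 42 and 44 CPM in the combination, against 3.12 and 2.92 CPM in BMN. OAS2, which makes the second messenger that activates RNase L, had 14.7 and 14.3 CPM with the combination, against 0.156 and 0.104 CPM, 3 and 2 counts, with BMN. GBP2 fell, with 3.21 and 3.91 CPM in the combination and 5 and 6.15 CPM in BMN, but did not pass without the first combination library (adjusted p = 0.051) or the second BMN library (adjusted p = 0.06).

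Upstream of these genes, 14 of 17 tested sensors of foreign RNA and DNA rose and 1 fell, with a median log2 difference of 0.55. IFIH1, the sensor of long double-stranded RNA, had 34.4 and 37 CPM in the combination and 11.7 and 9.96 CPM in BMN (log2 difference 1.72 ± 0.13 (SE), adjusted p = 4.9e-13). RIGI, the sensor of RNA with a 5′ triphosphate, had 12 and 10.7 CPM with the combination, against 0.937 and 1.72 CPM with BMN. IFI16, a DNA sensor, had 83.5 and 85.9 CPM, against 36.4 and 37.4 CPM. MAVS, the mitochondrial adaptor that RIGI and IFIH1 share, fell by 0.28 on the log2 scale. Of 10 tested interferons and receptors, 2 rose and 2 fell, near the shares of all tested genes (22.9% and 17.8%). With DESeq2 or its size factors none fell. Of those that passed, IFNE did not pass when any 1 of the 4 libraries was left out (adjusted p = 0.051 to 0.11). IFNAR2 and JAK1 did not pass without the second BMN library (adjusted p = 0.09 and 0.07) or the first combination library (0.15 and 0.13). JAK2, a kinase of cytokine receptors, had 17.5 and 18 CPM in the combination and 12.3 and 12 CPM in BMN.

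Antigen presentation by MHC class I rose as well, with 18 of 22 tested members higher, 1 lower and a median log2 difference of 0.62. HLA-B, a classical heavy chain, had 1144 and 1139 CPM in the combination libraries, against 412 and 430 CPM in the BMN libraries (log2 difference 1.44 ± 0.09 (SE), adjusted p = 5.7e-15). HLA genes are alike and vary between genomes, so the split of reads among them is uncertain. NLRC5, the transactivator of these genes, had 50.1 and 47.4 CPM with the combination and 17.1 and 17.7 CPM with BMN. B2M, the shared light chain, had 717 and 748 CPM, against 435 and 434 CPM, and TAP1, a subunit of the peptide transporter, had 139 and 150 CPM, against 66.2 and 69.2 CPM. PSME1, a proteasome activator, fell (log2 difference -0.26). Among ligands that restrain or engage lymphocytes, 16 of 23 tested rose and 3 fell, of which 1 was left when any 1 of the 4 libraries was left out or with DESeq2. CD274, which encodes PD-L1, had 56.8 and 58.5 CPM with the combination and 23.7 and 26.7 CPM with BMN (log2 difference 1.19 ± 0.09 (SE), adjusted p = 1.6e-12). NT5E, the ectonucleotidase CD73 that makes adenosine, had 213 and 222 CPM, against 64.6 and 61.4 CPM.

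Inflammatory cytokines and targets of NF-kB rose in 28 of 41 tested cases and fell in 5, with a median log2 difference of 1.30. The number that fell was 2 without the second combination library or the second BMN library, and 3 with DESeq2 or its size factors. C3, the central complement component, had 413 and 420 CPM in the combination libraries, against 7.23 and 6.57 CPM in the BMN libraries (log2 difference 5.91 ± 0.11 (SE), adjusted p = 8.1e-30). The chemokine CCL20 had 42.5 and 39.7 CPM with the combination, against 1.4 and 1.1 CPM with BMN. CXCL8, a neutrophil chemokine, had 629 and 632 CPM in the combination and 126 and 116 CPM in BMN, and the cytokine IL6 had 151 and 153 CPM, against 22.9 and 26.5 CPM. C3 stood at 100 ± 6.6 CPM with DAC alone (SD, n = 2). NFKBIA, the inhibitor that NF-kB induces as a brake on itself, was 1 of the 5 that fell, with 73.5 and 75.9 CPM in the combination, against 94.6 and 95.8 CPM in BMN (log2 difference -0.35, adjusted p = 0.00014).

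Targets of p53, the factor that halts or kills cells after DNA damage, rose in 21 of 32 tested cases and fell in 2, with a median log2 difference of 0.56. GDF15, a stress cytokine, had 176 and 173 CPM in the combination libraries, against 6.19 and 6.83 CPM in the BMN libraries (log2 difference 4.74 ± 0.16 (SE), adjusted p = 3.1e-22). CDKN1A, the p21 inhibitor of cyclin-dependent kinases, had 428 and 462 CPM with the combination and 169 and 176 CPM with BMN (log2 difference 1.37 ± 0.08 (SE), adjusted p = 2.6e-15). RRM2B, the ribonucleotide reductase subunit that p53 induces, had 217 and 207 CPM, against 91.6 and 88.1 CPM. The polo-like kinase PLK3 had 39.9 and 39.4 CPM in the combination, against 10.2 and 10.6 CPM in BMN. The combination libraries were the higher ones in all 4 genes, which naming members by smallest p favours, and the groups did not overlap in 72.3% of all tested genes. With DAC alone at day 5, GDF15 stood at 13.5 ± 1.3 CPM and CDKN1A at 132 ± 8.7 CPM, and in untreated KO cells of day 0 they stood at 4.2 ± 0.6 and 120 ± 5.8 CPM (SD, n = 2 each). Their levels were thus highest in the combination among these 4 groups, which was not tested. The 2 members that fell, BAX (log2 difference -0.28) and PLK2 (-0.14), did not pass without the second BMN library (adjusted p = 0.16 and 0.052); BAX also did not without the second combination library (0.079) and PLK2 without the first (0.086). Among genes of cell death, 19 of 26 tested rose and 4 fell, and 2 fell without either combination library or the second BMN library. The inflammasome sensor NLRP1 had 141 and 150 CPM with the combination and 66.2 and 68.6 CPM with BMN, and the inflammatory caspase CASP4 had 64 and 65.1 CPM, against 29 and 31.6 CPM. BCL2, the inhibitor of mitochondrial cell death, had 2.43 and 3.18 CPM with the combination, against 17.5 and 19.7 CPM with BMN (log2 difference -2.73 ± 0.20 (SE), adjusted p = 2.7e-13).

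Of the 29 gene lists, the replication-dependent histone genes had the lowest median. Their transcripts lack a poly(A) tail and are made in S phase to package new DNA. Of 48 tested, 44 fell, 1 rose and 3 did not pass, beside 17.8% of all tested genes that fell, and 43 fell at least 2-fold. The median log2 difference was -1.96. Summed over the list, the histone genes made up 1427 and 1444 CPM in the combination libraries, against 5442 and 5525 CPM in the BMN libraries. H1-5, a linker histone, had 66.3 and 65.8 CPM in the combination, against 399 and 404 CPM in BMN (log2 difference -2.60 ± 0.07 (SE), adjusted p = 4.7e-24). H1-3 had 14.4 and 14.3 CPM, against 89.8 and 91.8 CPM, and H2BC21, an H2B gene on chromosome 1, had 75.1 and 75.1 CPM, against 260 and 272 CPM. The member that rose, H2BC6, was at 2.93 and 4.41 CPM with the combination and 2.55 and 2.24 CPM with BMN, and did not pass without the second combination library (adjusted p = 0.54) or either BMN library (0.096 and 0.22). Histone genes of one type are close copies, so the single values are uncertain. Reads of low mapping quality were not counted, so the sum can also miss reads that fit several copies. Most of them lie in clusters on chromosome 6, where 6.25% of the 1184 tested genes fell at least 2-fold.

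DNA replication and S-phase genes, many of them targets of E2F, fell in 32 of 41 tested cases and rose in 1, with a median log2 difference of -0.54. MCM6, a subunit of the replicative helicase, had 55.6 and 56.7 CPM in the combination libraries, against 131 and 137 CPM in the BMN libraries (log2 difference -1.25 ± 0.06 (SE), adjusted p = 4.5e-18). POLA1, the catalytic subunit of the polymerase that starts each strand, had 37.8 and 34.5 CPM with the combination and 80.2 and 81 CPM with BMN. E2F2, itself an activator of the class, had 7.02 and 6.81 CPM in the combination, against 23.4 and 21.4 CPM in BMN (log2 difference -1.70 ± 0.14 (SE), adjusted p = 9e-12). The member that rose, GINS4 (log2 difference 0.26), did not pass when any 1 of the 4 libraries was left out (adjusted p = 0.072 to 0.31). The promoters of H1-5 and MCM6 are shown because the motif marked in each was more frequent among the promoters of its list than over protein-coding genes, by the counts given after the sequences. Both are the 250 bases before the RefSeq start in GRCh38.p14, 5′ to 3′ on the strand of the gene. That of H1-5 lies at chr6:27867589-27867838 on the minus strand, with CCAAT or its reverse complement ATTGG in capitals. That of MCM6 lies at chr2:135876444-135876693 on the minus strand, with the E2F motif TTTGGCGC in capitals.
H1-5: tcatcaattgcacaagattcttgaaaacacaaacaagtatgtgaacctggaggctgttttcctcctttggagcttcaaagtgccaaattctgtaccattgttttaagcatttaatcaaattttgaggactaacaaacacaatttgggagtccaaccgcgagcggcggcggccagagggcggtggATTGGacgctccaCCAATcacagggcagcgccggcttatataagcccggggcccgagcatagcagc
MCM6: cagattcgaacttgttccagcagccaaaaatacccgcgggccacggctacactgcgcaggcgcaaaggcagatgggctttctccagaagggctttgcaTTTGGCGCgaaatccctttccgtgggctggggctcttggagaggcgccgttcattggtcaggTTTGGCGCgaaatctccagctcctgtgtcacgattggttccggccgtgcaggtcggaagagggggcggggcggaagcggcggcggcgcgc
In the 300-base windows, searched on both strands, CCAAT stood in 38 of 44 histone promoters with an entry (86.4%), against 36.9% of protein-coding promoters. TTTCCCGC or TTTGGCGC stood in 17 of 34 replication promoters (50%), against 3.58% of protein-coding promoters, a promoter that holds both being counted once. These matches describe the windows and are not shown to be bound sites.

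Mitotic genes fell in 27 of 42 tested cases and none rose, with a median log2 difference of -0.35. CCNB1, the cyclin of mitotic entry, had 99 and 106 CPM in the combination, against 161 and 167 CPM in BMN (log2 difference -0.68 ± 0.06 (SE), adjusted p = 8.7e-11), and FOXM1, the transcription factor of the class, had 118 and 119 CPM, against 186 and 199 CPM. Genes of homologous recombination and the Fanconi pathway, which repair breaks and crosslinks at forks, fell in 25 of 49 tested cases and rose in 1, none by 2-fold; 3 rose with DESeq2, with its size factors or with only the 4 libraries. BRCA1 had 61.5 and 64.4 CPM with the combination and 99.6 and 102 CPM with BMN (log2 difference -0.68 ± 0.09 (SE), adjusted p = 7.2e-08). EXO1, a nuclease that resects breaks, had 32.7 and 32.9 CPM, against 57.2 and 58.8 CPM, and FANCD2, the Fanconi protein that is ubiquitylated at crosslinks, fell by 0.64 on the log2 scale. The damage kinase ATM rose, with 132 and 134 CPM in the combination, against 93.3 and 91.7 CPM in BMN. In bulk RNA, fewer cells in S phase and less of these transcripts per cell cannot be told apart.

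Summed over all members of a list, the levels can be set beside those with each drug given singly. The histone genes summed to 1427 and 1444 CPM in the combination, 5442 and 5525 CPM with BMN, 3843 and 3883 CPM with DAC at day 5, and 7316 and 7601 CPM in untreated KO cells of day 0. The replication genes summed to 3163 and 3206 CPM in the combination, 4442 and 4503 CPM with BMN, 4194 and 4465 CPM with DAC and 4891 and 4966 CPM untreated. The p53 targets summed to 2931 and 2960 CPM in the combination, 1985 and 2025 CPM with BMN, 1663 and 1696 CPM with DAC and 1674 and 1713 CPM untreated. The interferon-stimulated genes summed to 4351 and 4407 CPM in the combination, 2331 and 2355 CPM with BMN, 3546 and 3731 CPM with DAC and 2489 and 2516 CPM untreated. In each of these 4 lists the combination lay outside the range of all 6 other libraries, as it did in further lists, among them mitosis and homologous recombination. The germline genes summed to 406 and 413 CPM in the combination, 25.8 and 28.5 CPM with BMN and 513 and 528 CPM with DAC. The MHC class I genes summed to 8743 and 8686 CPM in the combination, 5780 and 5824 CPM with BMN and 8789 to 9378 CPM with DAC. In neither list did the combination exceed the DAC libraries. The untreated libraries are 5 days younger, and these sums carry no test.

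**Figure D3:**
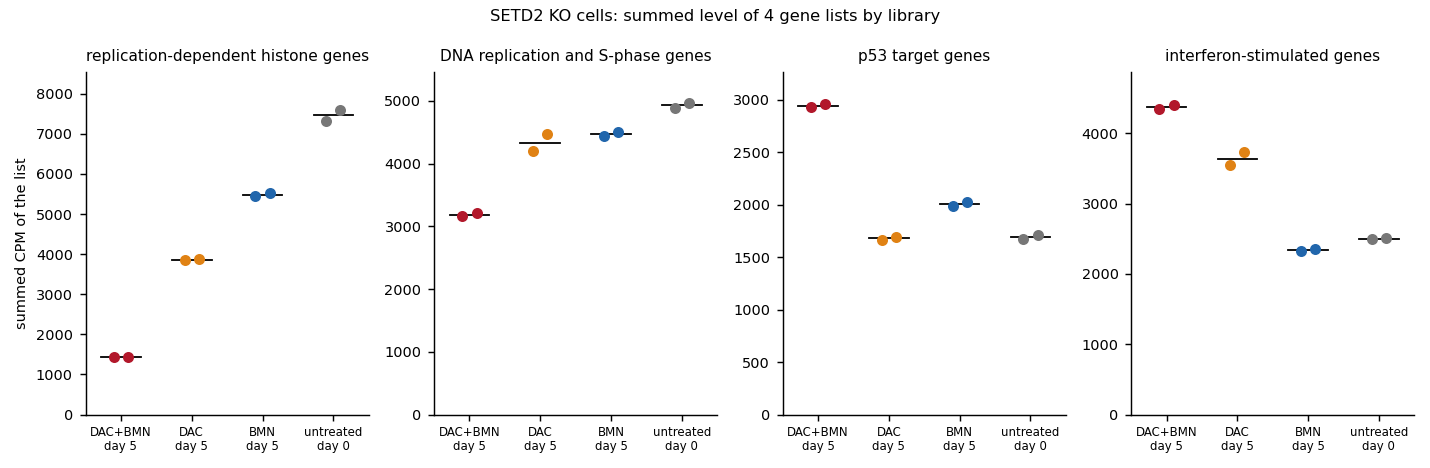
Points are the summed CPM of 4 gene lists in each library of SETD2 KO cells (2 libraries per group) and lines are the means, on axes from 0. The DAC+BMN libraries have the lowest histone sums, 1427 and 1444 CPM, and the highest p53 target sums, 2931 and 2960 CPM.

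Among the genes of the enzymes that the drugs act on, most differences were under 2-fold. UHRF1, which brings DNMT1 to newly replicated DNA, had 85.5 and 86.2 CPM in the combination libraries, against 151 and 156 CPM in the BMN libraries (log2 difference -0.84 ± 0.08 (SE), adjusted p = 1.5e-10). DNMT1 had 280 and 262 CPM with the combination and 310 and 324 CPM with BMN (adjusted p = 0.0055), a fall that did not pass without the second BMN library (adjusted p = 0.053) or the second combination library (adjusted p = 0.068). DNMT3A, at 6.14 and 6.08 CPM in the combination and 7.18 and 7.88 CPM in BMN, and DNMT3B, at 54.6 and 56.3 CPM and 47.2 and 47.3 CPM, did not pass (adjusted p = 0.13 and 0.054). DNMT3B passed with other size factors (adjusted p = 0.033). TET1 and TET3, which oxidise methylcytosine, fell by 1.78 and 0.43 on the log2 scale, and TET2 did not pass. Over the methylation machinery, 15 of 24 tested genes fell and 1 rose, the methyl-CpG-binding protein MBD1; 3 rose with DESeq2, with its size factors or with only the 4 libraries. PARP1 had 282 and 275 CPM in the combination, against 334 and 333 CPM in BMN (log2 difference -0.26, adjusted p = 0.0027), PARP2 had 16.9 and 19.2 CPM, against 24.2 and 25.9 CPM, and PARP3 rose, with 31.2 and 26.2 CPM, against 18.1 and 20.1 CPM. In base excision and single-strand break repair, 12 of 29 tested genes fell and 2 rose (1 without the first BMN library, and 5 of 28 with only the 4 libraries). UNG, which removes uracil from DNA, had 22.2 and 24.6 CPM in the combination, against 43.6 and 46.4 CPM in BMN. Among readers, writers and erasers of H3K36 methylation 10 of 27 tested fell and 3 rose, beside 17.8% and 22.9% of all tested genes. PSIP1, a reader of the mark, had 57.8 and 51.8 CPM, against 105 and 105 CPM.

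Of the genes that handle the drugs, CDA, the deaminase that inactivates decitabine, had 15.3 and 16.8 CPM with the combination, against 1.67 and 1.93 CPM with BMN (log2 difference 3.15 ± 0.17 (SE), adjusted p = 9.2e-17). DCK, the kinase that activates it, had 21.2 and 18.9 CPM, against 19 and 18.2 CPM, and did not pass (adjusted p = 0.68). SAMHD1, which hydrolyses deoxynucleotide triphosphates, had 87.9 and 87.4 CPM in the combination and 42.7 and 48.1 CPM in BMN. Over the whole nucleoside list 9 of 28 tested genes rose and 8 fell, beside 22.9% and 17.8% of all tested genes, and 5 rose without the first BMN library. SLFN11, a protein that blocks stressed forks and whose loss is linked to resistance to PARP inhibitors, had 62.7 and 63.2 CPM in the combination, against 87.8 and 86.8 CPM in BMN (log2 difference -0.47, adjusted p = 6.6e-07). Of 17 tested genes of response and efflux, 6 rose and 7 fell, beside the same 22.9% and 17.8% of all tested genes. The transporter ABCC3 had 112 and 116 CPM, against 38.1 and 40.1 CPM, and ABCC4 had 84.7 and 80.3 CPM, against 145 and 143 CPM.

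**Figure D4:**
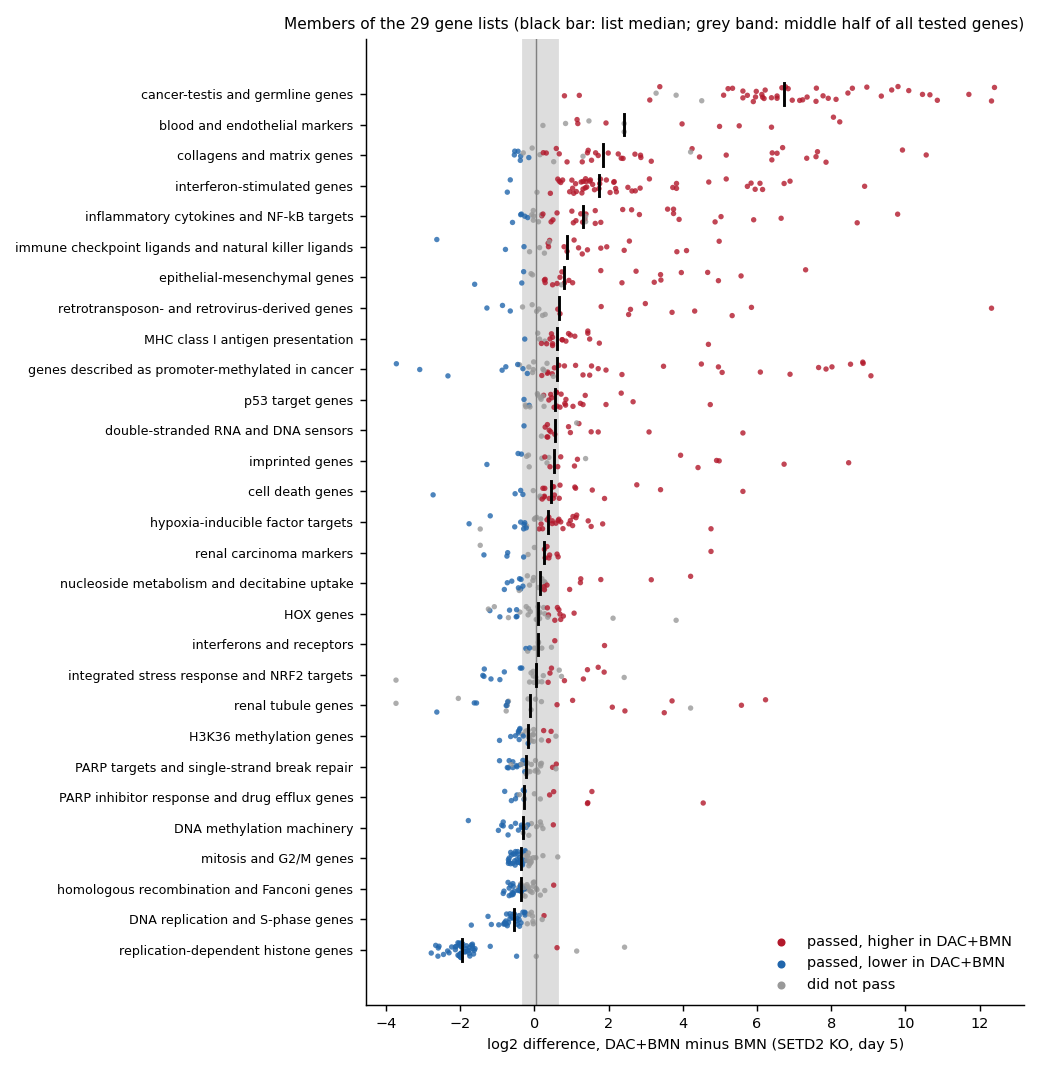
Each point is a tested member of 1 of 29 gene lists, at its log2 difference, DAC+BMN minus BMN, in SETD2 KO cells at day 5. Black bars are list medians and the grey band is the interquartile range of all tested genes. List medians run from -1.96 for histone genes to 6.72 for germline genes. The germline value depends on the small count that the fit adds, as 32 of 48 members had 0 counts in both BMN libraries.

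Outside the histone genes, the largest single falls included the following. TMEFF2, a transmembrane protein with follistatin domains, had 1.27 and 0.725 CPM in the combination libraries, against 9.31 and 9.7 CPM in the BMN libraries (log2 difference -3.24 ± 0.27 (SE), adjusted p = 7.1e-12). SCD, the desaturase that makes monounsaturated fatty acids, had 207 and 222 CPM with the combination, against 1241 and 1262 CPM with BMN (log2 difference -2.55 ± 0.05 (SE), adjusted p = 3e-29). With DAC alone SCD stood at 1333 ± 8.7 CPM and in untreated cells at 1853 ± 83 CPM (SD, n = 2 each). Its pseudogene SCDP1 fell with it, and the reads of the pair may be shared. ALDH1A1, a retinaldehyde dehydrogenase, had 24.1 and 26.2 CPM, against 155 and 157 CPM, and stood at 32.8 ± 0.5 CPM with DAC alone. BCL2 stood at 3.51 ± 0.46 CPM with DAC alone. The mean level of all 3 genes was lower in the combination than with either drug, and that of ALDH1A1 and BCL2 was closer to the level with DAC than to that with BMN; none of the differences from DAC was tested. IMPA2, an inositol monophosphatase, and SEMA5B, a semaphorin, fell by 2.80 and 2.70 on the log2 scale.

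Renal tubule genes as a class went both ways, with 8 of 24 tested higher and 6 lower, beside 22.9% and 17.8% of all tested genes. The aminopeptidase ANPEP of the proximal tubule brush border had 11 and 9.48 CPM in the combination, against 0.052 and 0.365 CPM in BMN, while the kidney injury marker HAVCR1 had 129 and 134 CPM, against 214 and 217 CPM. Targets of hypoxia-inducible factor, which 786-0 cells express through loss of VHL, rose in 22 of 36 tested cases and fell in 8. VEGFA, the angiogenic growth factor, had 516 and 493 CPM with the combination and 316 and 334 CPM with BMN, and TGFA, a ligand of the EGF receptor, had 836 and 868 CPM, against 388 and 386 CPM. DDIT4, an inhibitor of mTORC1, fell, with 180 and 181 CPM, against 604 and 625 CPM (log2 difference -1.76 ± 0.08 (SE), adjusted p = 3.1e-19).

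Of 44 tested genes described as promoter-methylated in cancer, 27 rose and 8 fell. COL14A1 had 53.7 and 56.5 CPM in the combination, against 2.81 and 2.03 CPM in BMN, and TFPI2, a serine protease inhibitor, had 275 and 279 CPM, against 82.9 and 85 CPM. The neurofilament gene NEFL and IGFBP3, which binds insulin-like growth factors, fell by 2.33 and 0.77 on the log2 scale. Imprinted genes rose in 12 of 22 tested cases and fell in 3, against 6 of 20 that fell with only the 4 libraries and 5 with a stricter filter or none. The noncoding RNA H19 had 15.6 and 13.3 CPM with the combination, against 0.156 and 0.104 CPM (3 and 2 counts) with BMN, and PEG10, an imprinted gene of retrotransposon origin, had 398 and 407 CPM, against 969 and 986 CPM. Genes derived from retrotransposons and retroviruses rose in 11 of 20 tested cases and fell in 3, but 7 rose without the second BMN library and 6 of 14 with a stricter filter. HOX genes, which pattern the body axis, rose in 9 of 34 and fell in 6, near the shares of all tested genes, and HOXA3 had 99.3 and 96.4 CPM, against 190 and 183 CPM. In the integrated stress response and NRF2 list 8 of 29 rose and 8 fell, beside 22.9% and 17.8% of all tested genes. ATF3 and ATF5 rose by log2 differences of 1.32 and 1.72, and the serine synthesis enzyme PSAT1, the cystine transporter SLC7A11 and the pseudokinase TRIB3 fell by 1.36, 1.39 and 1.35.

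Markers of blood and endothelial cells, which a pure culture should lack, were also measured. Of 26 listed, 14 could be tested, and 9 of these rose, all at least 2-fold, and none fell. The median log2 difference was 2.42. Their summed level was 666 and 685 CPM in the combination libraries, against 242 and 248 CPM in the BMN libraries, most of it from LCP1, an actin-bundling protein that carcinoma cells can also express (521 and 535 CPM, against 236 and 240 CPM). LAPTM5, a lysosomal protein of leukocytes, had 109 and 113 CPM, against 0.312 and 0.417 CPM. The blood and endothelial genes FCER1G, TIE1 and CD34 rose by log2 differences of 4.44, 3.99 and 2.65. These genes and the markers that follow were picked after their values were seen, and those that follow were low or absent. MS4A1, LYZ, HBB, HBA1 and EMCN had 0 counts in all 4 libraries, and PTPRC, the leukocyte antigen CD45, had 0.221 and 0.279 CPM, against 0 counts. The part of these markers in the immune lists, which rose in the same libraries, was not tested.

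Whether the difference was the same in the lines labelled KO and WT was tested as the difference in KO cells minus the difference in WT cells at day 5. This compares 1 line with 1 other, so SETD2 and other differences between the lines cannot be told apart. A total of 2210 of 22527 genes passed (9.81%), 1036 with a more positive difference in KO (4.6%) and 1174 with a more negative one (5.21%). Without the first combination library of KO, 667 were more positive, and without the second BMN library of KO or of WT, 749 and 747 were more negative. Of the 3042 genes that rose at least 2-fold in KO, 2108 also passed as higher in WT (69.3%, and 47.3% of the 4461 that rose in WT, which are 19.8% of all tested genes), and of the 551 that fell at least 2-fold, 342 passed as lower in WT (62.1%, and 9.7% of the 3527 that fell in WT, which are 15.7% of all tested genes). The histone genes had a more negative difference in KO for 42 of 48 and a more positive one for 1. Their median log2 difference was -1.96 in KO and -0.88 in WT, where that of all tested genes was 0.01. H1-5 fell by 2.60 on the log2 scale in KO and by 1.55 in WT, a difference of -1.05 (adjusted p = 2.1e-09). Replication genes were more negative in KO in 18 of 41 cases and never more positive, and MCM6 fell by 1.25 in KO and by 0.62 in WT (difference -0.64, adjusted p = 1.1e-06). UHRF1 fell by 0.84 in KO and stood at a log2 difference of -0.03 in WT (difference -0.81, adjusted p = 2.6e-06), and SLFN11 fell by 0.47 in KO and stood at -0.02 in WT (difference -0.45, adjusted p = 0.0011).

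In several immune lists more members had a more negative than a more positive difference in KO. Some genes stand in more than 1 of the 29 lists (996 entries for 954 symbols), so list counts are not separate results. Of 17 sensors of foreign RNA and DNA, 8 were more negative in KO and none more positive, with medians of 0.55 in KO and 1.06 in WT. Of 53 interferon-stimulated genes, 32 had a more negative difference in KO and 1, IFI27, a more positive one, and the medians were 1.74 in KO and 2.83 in WT. In the MHC class I list 11 of 22 were more negative in KO and none more positive. TAP1 rose by a log2 difference of 1.09 in KO and 2.25 in WT (difference -1.16, adjusted p = 4.1e-08). In the cytokine and NF-kB list 23 of 41 were more negative in KO and 2 more positive. IL6 rose by 2.62 in KO and by 4.94 in WT (difference -2.33, adjusted p = 4.9e-12), and NFKBIA, lower in KO, was at 1.19 in WT (difference -1.54, adjusted p = 4e-13). C3 went the other way, with 5.91 in KO and 4.06 in WT (difference 1.85, adjusted p = 2.6e-12). Among the ligands that restrain or engage lymphocytes, 8 of 23 were more negative in KO and 4 more positive, with medians of 0.88 in KO and 0.74 in WT. Of the germline genes 2 of 48 differed, both more positive in KO. Their fitted medians, 6.72 in KO and 7.44 in WT, depend on the small count that the fit adds. In KO, 32 of the 48 had 0 counts in both BMN libraries. Summed levels were 406 and 413 CPM in the combination against 25.8 and 28.5 CPM in BMN in KO. In WT they were 442 to 461 CPM against 63.6 to 67.2 CPM, so the medians do not show a larger rise in WT. Among p53 targets 6 of 32 were more positive in KO and 3 more negative, and GDF15 rose by 4.74 in KO and 3.41 in WT (difference 1.33, adjusted p = 3.5e-05).

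**Figure D5:**
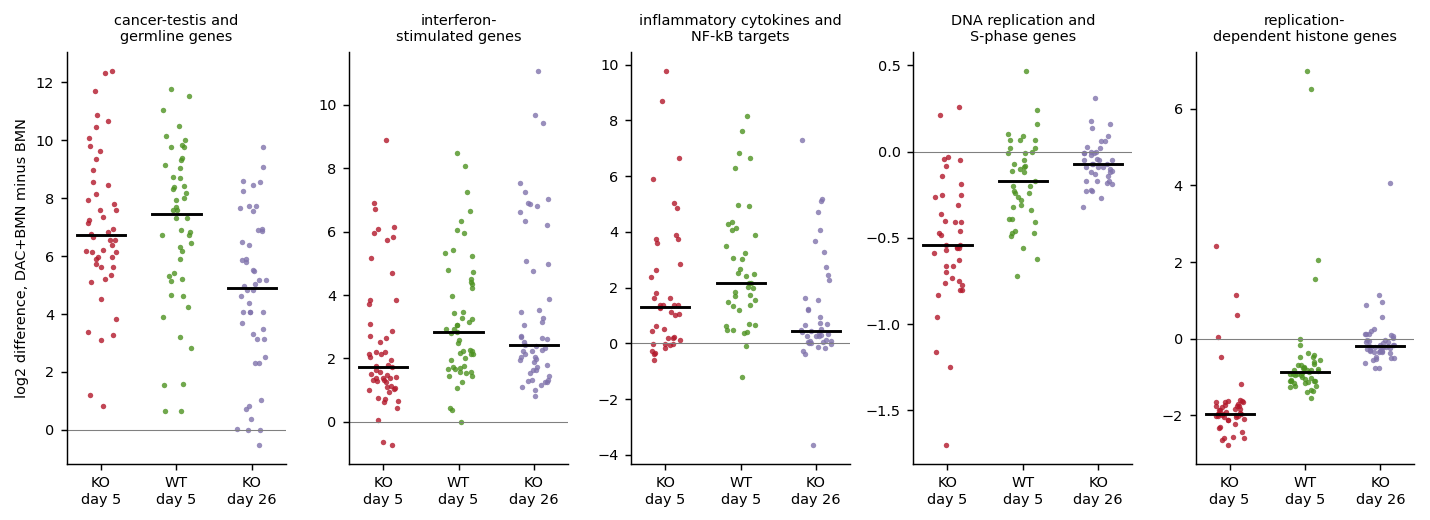
Points are members of 5 gene lists at their log2 difference, DAC+BMN minus BMN, in KO cells at day 5, WT cells at day 5 and KO cells at day 26, and bars are medians. The histone median is -1.96 in KO at day 5, -0.88 in WT at day 5 and -0.20 in KO at day 26.

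How the difference stood later was tested as the difference in KO at day 26 minus that in KO at day 5. The day 26 comparison alone passed 3083 genes (13.7%), 2427 higher (10.8%) and 656 lower (2.91%). Of the 3042 genes that rose at least 2-fold at day 5, 1112 passed as higher at day 26 (36.6%, and 45.8% of 2427), and of the 551 that fell at least 2-fold, 105 passed as lower (19.1%, and 16% of 656). The change between the days passed for 3877 genes (17.2%), 2448 more positive at day 26 (10.9%) and 1429 more negative (6.34%). More positive thus made up 63.1% of the calls, but 52.1% with DESeq2-style size factors (1903 and 1748), so the split depends on scaling, and 1605 were more positive without the first combination library of day 5. The histone fall was smaller at day 26. Of 48 members, 18 passed as lower and 2 as higher at day 26, and 43 were more positive at day 26 than at day 5 and none more negative. The median was -0.20, beside 0.04 over all tested genes. Their summed level was 4884 to 5038 CPM in the combination, against 5742 to 6021 CPM in BMN. H1-5 was lower by 0.47 on the log2 scale at day 26 (change 2.14, adjusted p = 4.3e-17). Of the replication genes 27 of 41 were more positive and 1 more negative, and MCM6 stood at -0.09 at day 26 (change 1.16, adjusted p = 1.4e-12). SCD stood at -0.31 (change 2.23, adjusted p = 1.1e-22), and GDF15 at 1.40 (change -3.34, adjusted p = 2.2e-10).

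Interferon-stimulated genes differed more at day 26. All 53 tested members passed as higher at day 26, 35 had a more positive difference than at day 5 and none a more negative one, and the median was 2.41. MX2 stood at 6.62 (change 1.93, adjusted p = 7.3e-05). Of 48 germline genes, 5 had a more negative difference at day 26 than at day 5 and none a more positive one, beside 6.34% of all tested genes that were more negative, and 43 did not pass. At day 26, 32 of the 48 were higher, with a median of 4.91 and a summed level of 101 to 107 CPM in the combination, against 21.5 to 22.7 CPM in BMN. GCNA stood at 0.36 at day 26 and 5.10 at day 5 (change -4.74, adjusted p = 2e-12), while MAGEB2 still had 5.57 CPM in the combination and 0 counts in BMN. Of the matrix genes, 29 of 44 were higher and none lower at day 26, while the change from day 5 was more positive for 12 and more negative for 12. COL1A1 stood at 6.18 (change -0.23, adjusted p = 0.5).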

How the data were processed

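The series holds 40 RNA-seq libraries of 786-0 cells (20 groups of 2), made from total RNA with the KAPA RNA HyperPrep kit per the labels' protocols. The deposited values are raw counts per gene, which the authors did not normalise. Per the file headers, featureCounts 1.5.0-p1 assigned reads to the Ensembl 104 annotation of GRCh38 with strand setting 1 and a mapping quality of at least 20, and ignored reads marked as duplicates, which can compress high counts. FastQC, Trimmomatic and Partek are named in the submitters' processing notes. The header names 76 alignments, and the 40 columns of the labelled samples were used.

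Genes were kept by filterByExpr (minimum count 10, minimum total 15), which left 22527 of 60664. After TMM scaling, a quasi-likelihood model of all 40 libraries was fitted in edgeR 4.0.16 (R 4.3.3) with a mean per group (residual df 20, prior df 12.37, biological coefficient of variation 0.07178), so that the spread is shared over the 20 groups. P-values were adjusted by Benjamini-Hochberg over all tested genes within each contrast, at 0.05. Errors of levels are SDs of 2 libraries and errors of log2 differences are SEs. The 3 counts used as a floor cover counting error only. The 37 listed mitochondrial genes had 0 counts in all libraries. Counts of replicates differed by more than sampling noise, with a chi-square per degree of freedom of 1.867 in the combination and 1.924 in BMN. Over the 20 groups it ran from 1.635 in WT cells with BMN at day 5 to 17.36 in untreated WT cells. The shared spread thus draws on groups that were less alike than those compared. The fit was first tested on simulated data.

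The groups compared, the 29 gene lists and the naming rule were chosen with earlier results of these data known, so list counts and medians are descriptions. Where a list count of the combination against BMN in KO at day 5 has no share beside it, 22.9% of all tested genes rose and 17.8% fell. Genes named are the drug targets and handlers, the 15 largest rises and falls among genes of at least 5 CPM with no overlap of libraries, up to 5 members of each list with the smallest p and up to 2 of the opposite direction, and the 6 largest differences each way in the KO minus WT and day 26 minus day 5 tests; the text prints a choice of them, and some are not reported here. A few further members (TDRD1, GAGE12J, LIN28B, DPPA4, PAX8, CA9 and the blood and endothelial markers) were named after their values were seen. Promoters and symbols came from RefSeq tables of GRCh38.p14, which do not hold every gene; shares are given for lists with at least 80% of tested members matched.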

Additional observations from a re-analysis of the deposited data

Results flagged for a closer look

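Differences between groups under the same contrast were looked for with a test of the difference itself. Between KO and WT cells at day 5, 2210 genes passed, and between day 26 and day 5 in KO cells, 3877 passed. The genes below are the largest of each, and log2 values against groups at 0 counts depend on the small count that the fit adds, so the levels say more. No explanation of these differences was tested.

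In the KO minus WT test, several genes were silent in KO cells with BMN but already transcribed in WT cells with BMN. NDN, an imprinted gene, had 2.25 CPM with the combination and 0 counts with BMN in KO, and 14.1 and 12.9 CPM in WT (log2 difference of differences 8.35). HAS2, a hyaluronan synthase, had 6.41 CPM and 0 counts in KO, and 4.73 and 0.949 CPM in WT (7.68). POSTN, the matrix protein periostin, had 6.16 CPM and 0 counts in KO, and 3.4 and 0.552 CPM in WT (7.33). MLPH had 0.861 CPM and 0 counts in KO, and 5.4 and 4.42 CPM in WT (6.81). SPEG had 16.2 and 0.13 CPM in KO, and 8.78 and 2.25 CPM in WT (4.94), and BDH1 had 1.36 and 0.0521 CPM in KO, and 4.38 and 5.5 CPM in WT (4.87).

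In the opposite direction, several genes were already on in KO cells with BMN and near silent in WT cells with BMN. The linker histone gene H1-1 had 9.89 CPM with the combination and 9.53 CPM with BMN in KO, and 13.3 and 0.0982 CPM in WT (-6.95). GALNT5 had 69.2 and 19.5 CPM in KO, and 6.39 and 0.0264 CPM in WT (-5.87). KCNJ15 had 10.7 and 5.84 CPM in KO, and 0.549 CPM and 0 counts in WT (-5.59), and did not pass without the first (adjusted p = 0.083) or second (0.11) WT library with BMN or the second WT library with the combination (0.061). INHBE had 1.19 and 1.38 CPM in KO, and 6.24 and 0.358 CPM in WT (-4.37). DENND2D had 7.67 and 2.76 CPM in KO, and 7.55 and 0.177 CPM in WT (-3.94). SLC6A9, a glycine transporter, had 3.05 and 10.5 CPM in KO, and 6.22 and 1.37 CPM in WT (-3.94).

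In the day 26 minus day 5 test, the 6 largest gains included H19, with 412 CPM in the combination and 0.0237 CPM in BMN at day 26, and 14.5 and 0.13 CPM at day 5 (6.98), and 3 interferon-stimulated genes. OAS2 had 120 and 0.0489 CPM at day 26, and 14.5 and 0.13 CPM at day 5 (4.35), OAS1 had 88 and 0.12 CPM, and 14.9 and 0.234 CPM (3.47), and IFITM1, which has close copies, had 10.4 and 0.123 CPM, and 0.944 and 0.104 CPM (3.23). HTRA1, a serine protease, had 46.4 and 7.11 CPM at day 26, and 5.67 and 10.7 CPM at day 5 (3.61). The pseudogene PPIAP46 had 5.7 CPM and 0 counts at day 26, and 0.306 and 0.0782 CPM at day 5 (7.93).

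The largest losses were those of FBLIM1, with 2.41 and 0.126 CPM at day 26 and 13.3 CPM and 0 counts at day 5 (-6.81), NFE4, with 1.3 and 0.0947 CPM and 8.05 CPM and 0 counts (-6.66), MBNL3, with 0.504 and 0.172 CPM and 5.31 and 0.026 CPM (-5.84), SH2D2A, with 0.373 and 0.0756 CPM and 10.9 and 0.0521 CPM (-5.28), DNAH17, with 1.05 and 0.929 CPM and 11.4 and 0.339 CPM (-4.86), and GCNA, with 1.6 and 1.24 CPM and 36 and 1.04 CPM (-4.74). Several of these calls rest on few counts with BMN and did not pass without 1 library. Without the first BMN library of day 5 the adjusted p was 0.075 for OAS2, 0.12 for OAS1, 0.14 for IFITM1 and 0.073 for NFE4, and without the second it was 0.082 for PPIAP46, 0.15 for IFITM1 and 0.076 for NFE4. Without the first BMN library of day 26 it was 0.082 for IFITM1 and 1 for NFE4, and without the second it was 1 for FBLIM1, 0.063 for MBNL3 and 0.95 for SH2D2A.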

How the results depend on the processing

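No named gene that passed as reported or under an alternative changed direction between them. Every gene called both as reported and under an alternative had the same direction in both. Named genes that passed in neither were not checked for direction. Genes that passed between the combination and BMN in KO at day 5 numbered 8537 with DESeq2, 9065 with DESeq2-style size factors, 9039 with no filter, 8168 with a stricter filter and 10386 with only the 4 libraries, and 7291 to 7530 with a library left out (3969 to 4315 higher, 3215 to 3509 lower). The KO minus WT difference passed 2210 genes, 4420 with only the libraries compared (2061 and 2359), and 1492 to 1648 with a library left out (667 to 862 more positive in KO, 747 to 972 more negative). The day 26 minus day 5 change passed 3877 genes, 5955 with only the libraries compared (2493 of them more negative), and 2778 to 3050 with a library left out (1605 to 2031 more positive, 1003 to 1173 more negative). The cause of these shifts was not tested, beyond the smaller number of libraries.

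Replicate numbers showed no pairing of the libraries, with correlations of their deviations of 0.012 in KO at day 5, 0.009 in WT and 0.01 in KO at day 26. These run over all 22527 tested genes, 6729 of them with a mean under 1 CPM in the 4 libraries. Counting noise in such genes can hide a pairing, so the correlations cannot exclude one. With a replicate block, 9215, 2238 and 3920 genes passed. An alternative chosen after seeing the data, the block with only the 4 libraries, passed 10613.

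Of the values of named genes under the alternatives for the combination against BMN in KO at day 5, 2104 kept their side of the threshold, 10 passed newly (among them SETD2 with only the 4 libraries, adjusted p = 0.016) and 41 no longer passed. The calls lost were those of DNMT1, GBP2, H2BC6, GINS4, ULBP1, IFNE, IFNAR2, JAK1, BAX, PLK2, SMUG1 and KDM2A. In the KO minus WT test 165 kept their side and 3 no longer passed, all of KCNJ15. In the day 26 minus day 5 test 156 kept their side and 12 no longer passed, those of PPIAP46, OAS2, OAS1, IFITM1, FBLIM1, NFE4, MBNL3 and SH2D2A. The median of the renal tubule list changed sign with no filter (0.08), and that of the stress response list without a filter or the first combination library.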
